A study of Mus musculus with 30 samples.

Results

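The disease-associated microglia genes are 10 genes whose RNA is raised in the microglia that gather around damaged or lipid-laden tissue: Clec7a, Ccl3, Ccl4, Cst7, Itgax, Trem2, Tyrobp, Apoe, Lpl and Spp1. They were picked by gene name from a table of 34871 rows of gene-level RNA abundance in mouse brain. The names gave 11 rows, because 2 overlapping rows carry the name Clec7a. All 11 passed the filter on low values used here, a mean above 0 on the deposited log2 scale, and Itgax only just did, at 0.13. The filter left 23695 genes to test.

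Microglia, the resident macrophages of the brain, leave their resting state step by step when they meet cell debris, myelin fragments or protein deposits. The receptor Trem2, which binds lipids and lipoproteins, passes its signal through the adaptor Tyrobp, and the later steps need Trem2 in mice. The state is known from models of Alzheimer disease, demyelination and ageing, and it brings higher RNA of lipid-handling genes, secreted factors and surface receptors.

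Brains came from 30 mice aged 8 months. Tmem106b encodes a membrane protein of lysosomes and late endosomes. The genotype labels are Tmem106b -/- (KO, 10 mice), Tmem106b +/- (HET, 10 mice) and Tmem106b +/+ (WT, 10 mice), and no other allele or treatment is given for any of them. The design is balanced, with 2 mice of each sex in cohort 2 and 3 of each sex in cohort 1 for every genotype. The sources used here give neither the meaning of the cohort label nor the strain nor which exons were targeted. RNA of the cerebral hemispheres of all mice was extracted in a single experiment, per the labels. The tissue is bulk brain, so more microglia and more RNA per microglial cell cannot be told apart. 

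Tmem106b itself followed the labels. Its level ran from 7.43 to 7.67 in KO brains, from 8.54 to 8.62 in HET brains and from 9.06 to 9.27 in WT brains, with no overlap. The RNA integrity number (RIN) was 9.35 ± 0.49 in KO, 9.23 ± 0.22 in HET and 9.40 ± 0.28 in WT (mean ± SD, n = 10 each). KO replicate 9, a female of cohort 2, stood apart in several measures, and 7 other brains stood apart in 1 measure each. In KO replicate 9 the summed level of 5 red blood cell genes was 14.55 on the log2 scale, while the next highest KO brain had 12.52 and the WT brains reached 12.24. The same brain had the highest levels of the longer Clec7a row and of Itgax and the lowest of Apoe and Spp1 in the KO group, so the Clec7a, Itgax, Apoe and Spp1 differences are also given without it, here or in the closing section.

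The sequences just upstream of 4 members are shown because these genes carry the comparisons that follow: Clec7a and Ccl3 had the 2 largest KO against WT differences among the members, Trem2 is the receptor of the pathway, and Itgax holds the largest number of motif matches. They are the 250 bases before the RefSeq start on GRCm38.p6, written 5′ to 3′ on the gene's own strand. Capitals mark GGAAGT, the core bound by ETS factors such as PU.1 (ACTTCC on the other strand), and TGANTCA. The latter is looser than the AP-1 site, whose middle base is C or G.
Clec7a (chr6:129472780-129473029, minus strand): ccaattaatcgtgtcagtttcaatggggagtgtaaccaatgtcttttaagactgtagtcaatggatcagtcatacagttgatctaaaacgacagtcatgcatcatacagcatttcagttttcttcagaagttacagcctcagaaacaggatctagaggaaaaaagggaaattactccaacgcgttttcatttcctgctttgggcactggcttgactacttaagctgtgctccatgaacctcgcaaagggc
Trem2 (chr17:48346151-48346400, plus strand): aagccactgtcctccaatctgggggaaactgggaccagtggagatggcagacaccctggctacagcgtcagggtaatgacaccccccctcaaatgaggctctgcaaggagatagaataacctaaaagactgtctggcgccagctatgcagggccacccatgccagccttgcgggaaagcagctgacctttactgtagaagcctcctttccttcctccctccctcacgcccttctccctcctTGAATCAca
Ccl3 (chr11:83649379-83649628, minus strand): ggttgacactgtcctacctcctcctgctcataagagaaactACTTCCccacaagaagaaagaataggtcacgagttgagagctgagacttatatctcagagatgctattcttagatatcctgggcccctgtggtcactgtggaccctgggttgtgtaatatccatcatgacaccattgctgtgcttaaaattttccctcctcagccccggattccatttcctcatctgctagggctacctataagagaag
Itgax (chr7:128129300-128129549, plus strand): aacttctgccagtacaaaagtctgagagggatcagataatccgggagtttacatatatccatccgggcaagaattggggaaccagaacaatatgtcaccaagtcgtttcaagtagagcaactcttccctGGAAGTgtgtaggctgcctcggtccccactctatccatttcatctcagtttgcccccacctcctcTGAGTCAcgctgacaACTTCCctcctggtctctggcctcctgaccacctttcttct
The Itgax window held 2 GGAAGT matches, 1 on each strand, and 1 TGANTCA match, with G in the middle. The Ccl3 window held 1 GGAAGT match, the Trem2 window held 1 TGANTCA match, and the Clec7a window held neither. The Trem2 match has A in the middle and so is not the AP-1 site itself. RefSeq windows were found for 7 of the 10 genes, 11 windows in all, and the names without one are Ccl4, Tyrobp and Lpl. Cst7 and the first of the Spp1 windows also held 1 GGAAGT match each, and no window of a member held CACGTG, the E-box core of lysosomal CLEAR sites. Over 32851 windows of the same length, 19.7% held GGAAGT, 6.75% held TGANTCA and 6.02% held CACGTG, counting both strands. In the windows of the members no match overlapped another.

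The members fell into an abundant and a scarce set. On the deposited scale, RPKM in log2 units, meaning reads scaled by exon length and by library, after conditional quantile normalization (cqn), the median of all values was 2.85. Apoe, the main lipid carrier of the brain, made chiefly by astrocytes in healthy tissue, had a mean of 12.53 over the 30 brains. Spp1, the secreted protein osteopontin, followed at 7.70 and Tyrobp at 7.45. Spp1 lay above Tyrobp in 24 of 30 brains, and their ranges overlapped. Lpl, the lipase that frees fatty acids from lipoproteins, stood at 5.21 and Trem2 at 4.70. Lpl exceeded Trem2 in 30 of 30 brains. These 5 genes varied little, with an SD over all brains between 0.06 for Apoe and 0.23 for Spp1.

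The scarce set held the remaining 5 genes. The longer Clec7a row averaged 2.10, Ccl3 1.66, the shorter Clec7a row 1.54, Cst7 1.49, Ccl4 0.74 and Itgax 0.13. Neighbours in this order did not separate: the longer Clec7a row exceeded Ccl3 in 17 of 30 brains, and the shorter Clec7a row exceeded Cst7 in 18. Their SD over all brains ran from 0.43 for Itgax to 0.99 for Ccl4. Many of these values are shared exactly by at least 100 genes of the same library. That held for Itgax in 5 KO, 8 HET and 8 WT brains, and for Ccl4 in 3 KO, 1 HET and 4 WT brains. It held for Cst7 in 1 KO and 2 HET brains, for Ccl3 in 1 HET and 2 WT brains, and for the shorter Clec7a row in 2 HET and 1 WT brain. It held for no brain in the other 6 rows.

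**Figure D1:**
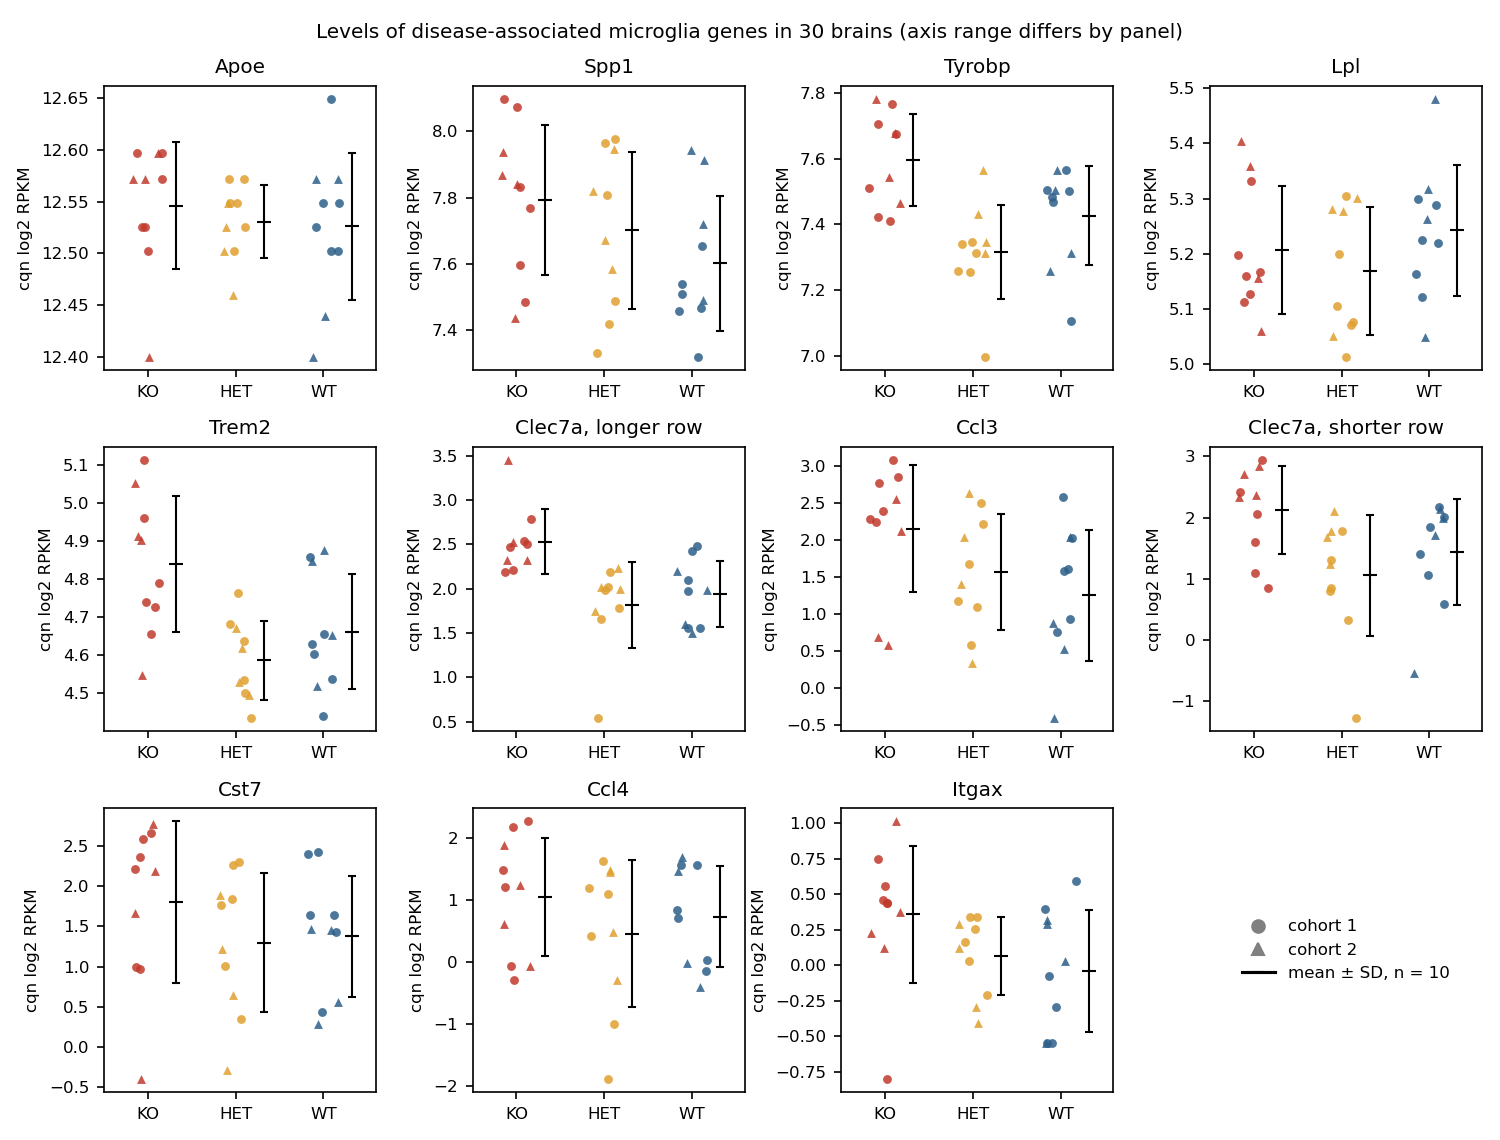
Level of each member row in every brain (cqn log2 RPKM, 1 panel per row, axis range differing between panels) for KO, HET and WT, circles for cohort 1 and triangles for cohort 2, with mean ± SD, n = 10 each. KO brains have the highest mean in every row but Lpl, and the ranges of the genotypes overlap in all 11 rows.

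In KO against WT brains, no member passed the adjusted threshold for a rise or a fall. With limma and Benjamini-Hochberg adjustment over all 23695 genes, 0 of 11 rows had an adjusted p under 0.05, where 1.00% of all genes did (237 genes, 66 higher and 171 lower). At an unadjusted p under 0.05, 5 of 11 rows were higher in KO (Clec7a in its longer row, Ccl3, Tyrobp, Trem2 and Spp1) and 0 were lower, beside 6.11% of all genes higher and 5.90% lower. The estimate was positive in 10 of 11 rows, against 53.3% of all genes, and the median difference was 0.29 log2 (0.19 without KO replicate 2), against 0.01 over all genes. In 0 of 11 rows did every KO brain lie above every WT brain, and 1 gene of the table did so (0.00422%). The members were chosen with earlier results of these data known, and 2 of the 11 rows are Clec7a. Here and below, member counts set beside all genes are therefore descriptions and no independent support.

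Clec7a, also called dectin-1, is a lectin receptor of myeloid cells that signals through the kinase Syk. Its longer row (ENSMUSG00000079293, chromosome 6, 129461591 to 129472777, mm10) had a lowest, median and highest level of 2.18, 2.49 and 3.45 in KO brains, 0.54, 1.99 and 2.23 in HET brains and 1.495, 1.98 and 2.49 in WT brains. All 10 KO brains lay above the WT mean, 5 lay above every WT brain and 8 above every HET brain. The KO minus WT difference was 0.58 ± 0.18 log2 (limma estimate ± SE, 95% interval 0.21 to 0.96), or 49.7%, with an unadjusted p of 0.0035 and an adjusted p of 0.138. Without KO replicate 9 the difference was 0.50, with an adjusted p of 0.20.

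The shorter Clec7a row (ENSMUSG00000102040, 129463041 to 129472685) lies inside the longer one, so reads may have been split between them. It had 0.84, 2.35 and 2.94 as lowest, median and highest in KO brains, -1.29, 1.27 and 2.11 in HET brains and -0.55, 1.78 and 2.17 in WT brains. In KO 6 of 10 brains exceeded every WT brain, but the groups overlapped, since 2 KO brains lay below the WT mean. The difference was 0.67 ± 0.34 (adjusted p = 0.441, limma), and 0.42 without WT replicate 10. With the rows joined into 1 by length, the Clec7a difference was 0.59 (adjusted p = 0.124).

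Trem2 (ENSMUSG00000023992, chromosome 17, 48346401 to 48354147) had levels of 4.55, 4.85 and 5.11 (lowest, median, highest) in KO brains, 4.43, 4.58 and 4.77 in HET brains and 4.44, 4.64 and 4.88 in WT brains. In KO 8 of 10 brains were above the WT mean and 5 were above every WT brain, while no HET brain was. Relative to WT, KO was higher by 0.18 ± 0.07 log2, or 13.1% (unadjusted p = 0.0146, adjusted p = 0.259, limma).

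Tyrobp, also named DAP12, carries the activation motif to which Syk binds (ENSMUSG00000030579, chromosome 7, 30413788 to 30417577). Its levels were 7.41, 7.61 and 7.78 in KO brains, 6.996, 7.33 and 7.56 in HET brains and 7.11, 7.49 and 7.57 in WT brains. In KO 5 of 10 brains exceeded every WT brain and every HET brain, and the lower 5 lay within both ranges. Against WT this gave 0.17 ± 0.06 log2, or 12.3% (unadjusted p = 0.0129, adjusted p = 0.249, limma).

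Itgax, the CD11c chain of an integrin receptor for complement fragments, was near the floor (ENSMUSG00000030789, chromosome 7, 128129547 to 128150656). It had -0.80, 0.44 and 1.01 in KO brains, -0.41, 0.14 and 0.34 in HET brains and -0.55, -0.02 and 0.59 in WT brains. The lowest value of all belonged to a KO brain, replicate 2, and the other 9 KO brains were above the WT mean. The estimate for KO minus WT was 0.38 ± 0.21 log2 (adjusted p = 0.477, limma) and 0.51 without that brain (adjusted p = 0.293). Without KO replicate 9 it was 0.33 (adjusted p = 0.561).

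Ccl3 and Ccl4 encode chemokines, secreted proteins that attract immune cells, and lie side by side on chromosome 11, 13228 bases apart. Ccl3 (ENSMUSG00000000982, 83647844 to 83649355) had 0.59, 2.34 and 3.09 in KO brains, 0.34, 1.55 and 2.64 in HET brains and -0.41, 1.26 and 2.59 in WT brains. It had the largest KO minus WT estimate of the members, 0.89 ± 0.33 log2 (95% interval 0.20 to 1.57, 1.85-fold), yet the groups overlapped over most of their range and only 3 KO brains exceeded every WT brain. The unadjusted p was 0.0129 and the adjusted p 0.249 (limma).

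Ccl4 (ENSMUSG00000018930, 83662584 to 83664683) had -0.29, 1.23 and 2.27 in KO brains, -1.90, 0.78 and 1.63 in HET brains and -0.41, 0.77 and 1.69 in WT brains. Its spread within each genotype was wider than any gap between their means. For KO minus WT the estimate was 0.29 ± 0.40 (95% interval -0.53 to 1.12, adjusted p = 0.842, limma). That interval also holds the value estimated for Ccl3. Leaving out 1 brain put the estimate between 0.089 (without KO replicate 2) and 0.45 (without WT replicate 10).

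Cst7 encodes cystatin F, an inhibitor of lysosomal cysteine proteases (ENSMUSG00000068129, chromosome 2, 150570415 to 150578944). It had -0.41, 2.20 and 2.78 in KO brains, -0.29, 1.49 and 2.31 in HET brains and 0.29, 1.46 and 2.43 in WT brains. The KO group held both the highest and the lowest brain of the series. Its KO minus WT difference was 0.38 ± 0.32 log2 (adjusted p = 0.696, limma), and 0.19 without KO replicate 10.

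Of the abundant genes Spp1, Apoe and Lpl, Spp1 had the largest KO minus WT estimate. It (ENSMUSG00000029304, chromosome 5, 104435118 to 104441050) had 7.44, 7.84 and 8.10 in KO brains, 7.33, 7.74 and 7.98 in HET brains and 7.32, 7.52 and 7.94 in WT brains. In KO 7 of 10 brains lay above the WT mean and 2 above every WT brain. The KO minus WT difference was 0.20 ± 0.09 log2 (unadjusted p = 0.0475, adjusted p = 0.409, limma), and 0.25 without KO replicate 9 (adjusted p = 0.214).

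Apoe and Lpl were nearly level across genotypes. Apoe (ENSMUSG00000002985, chromosome 7, 19696109 to 19699166) had 12.40, 12.57 and 12.60 in KO brains, 12.46, 12.54 and 12.57 in HET brains and 12.40, 12.54 and 12.65 in WT brains. Its KO minus WT difference was 0.02 ± 0.02 log2, with a 95% interval of -0.03 to 0.07 (adjusted p = 0.784, limma). Identical Apoe levels recur between brains, such as 12.5724 in KO replicate 2, HET replicate 1 and WT replicate 7. The deposited scale may therefore understate the spread of Apoe, and the interval is no firm bound. Lpl (ENSMUSG00000015568, chromosome 8, 68880491 to 68907448) had 5.06, 5.16 and 5.40 in KO brains, 5.01, 5.15 and 5.30 in HET brains and 5.05, 5.24 and 5.48 in WT brains. It was the only member with a negative estimate, -0.03 ± 0.05 (95% interval -0.14 to 0.07, adjusted p = 0.861).

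**Figure D2:**
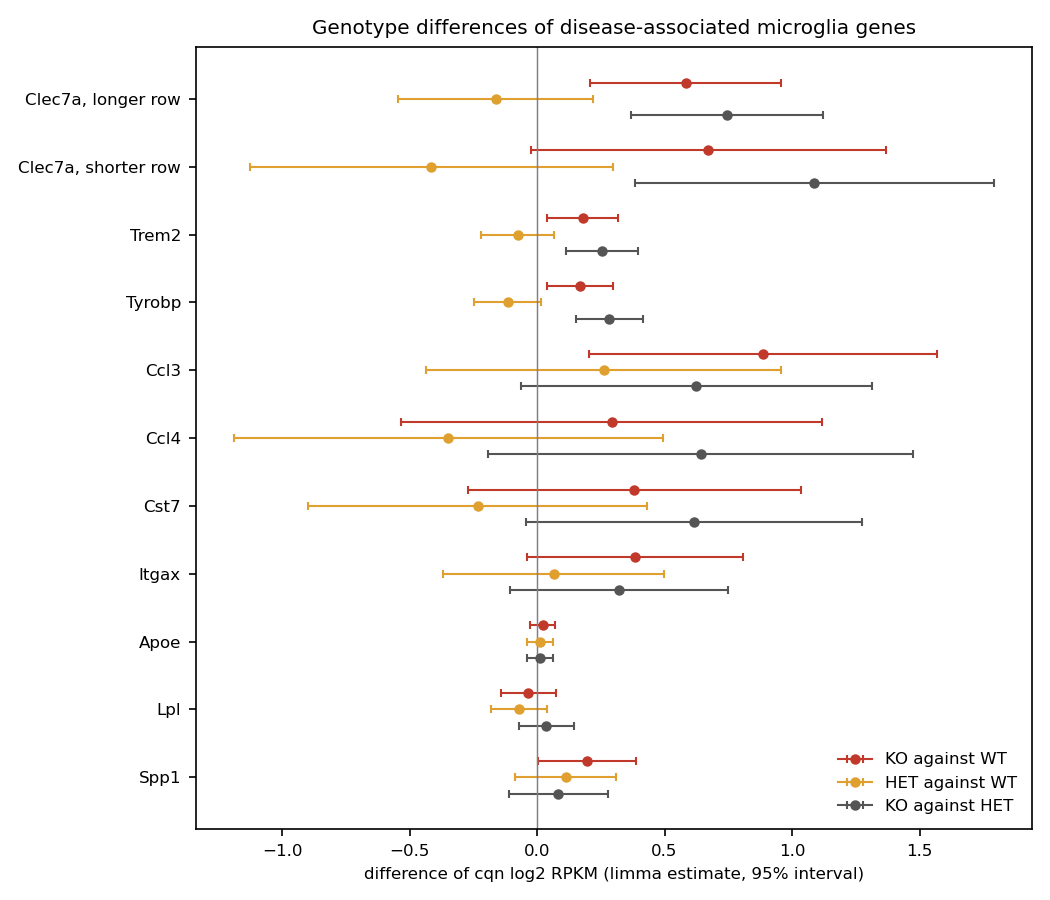
Difference of cqn log2 RPKM (x axis, limma estimate with 95% interval) for each member row in KO against WT, HET against WT and KO against HET. Intervals are narrow for Apoe and Lpl and wide for Ccl3, Ccl4, Cst7 and the shorter Clec7a row. They are not adjusted for the number of genes, and no member row had an adjusted p under 0.05. In KO against HET the intervals of Clec7a (both rows), Trem2 and Tyrobp lie clear of 0. In KO against WT those of the longer Clec7a row, Ccl3, Trem2, Tyrobp and Spp1 do.

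In brains with a single intact copy, no member passed the adjusted threshold for a rise or a fall. In HET against WT, 0 of 11 rows passed the adjusted threshold, as did 1 gene of the table (0.00422%, Tmem106b), and 0 of 11 had an unadjusted p under 0.05, where 6.32% of all genes did (limma). The estimate was positive in 4 of 11 rows and the median was -0.08. Both comparisons use the same WT brains. Clec7a in its longer row stood at 0.58 in KO against WT and at -0.16 ± 0.19 in HET against WT (adjusted p = 0.927, limma), the second being -0.031 without HET replicate 10. Tyrobp stood at 0.17 and at -0.12 ± 0.06 (adjusted p = 0.805). Trem2 stood at 0.18 and at -0.08 ± 0.07 (adjusted p = 0.903). Only Spp1, Ccl3, Apoe and Itgax had the same positive sign in both, with Spp1 at 0.20 and 0.11 and Ccl3 at 0.89 and 0.26. A linear slope over the copies lost gave 0 of 11 rows called (1.02% of all genes) and 5 of 11 at an unadjusted p under 0.05, all positive, beside 6.15% of all genes. With equal groups this slope rests almost wholly on the KO and WT brains. It therefore repeats KO against WT and does not test whether HET brains lie between them.

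KO against HET gave the smallest p-values of the members. Again 0 of 11 rows passed the adjusted threshold (0.118% of all genes), while 4 of 11 were higher at an unadjusted p under 0.05, beside 4.25% of all genes, and 11 of 11 estimates were positive (limma). Tyrobp was higher in KO by 0.28 ± 0.06 log2, or 21.7% (unadjusted p = 0.000123, adjusted p = 0.0696). The longer Clec7a row was higher by 0.74 ± 0.18 (adjusted p = 0.125), the shorter row by 1.09 ± 0.34 (adjusted p = 0.273) and Trem2 by 0.25 ± 0.07 (adjusted p = 0.173).

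The Tyrobp and Trem2 result in KO against HET depended on the terms of the fit. With the plate column from the sample titles added, Tyrobp (0.33, adjusted p = 0.0278) and Trem2 (0.30, adjusted p = 0.0286) passed. Tyrobp also passed without HET replicate 7 (adjusted p = 0.0321) and without KO replicate 10 (adjusted p = 0.0467). With the mean level of 15 genes of microglia and macrophages at large added, the KO minus HET differences were smaller, 0.16 for Tyrobp (adjusted p = 0.281) and 0.13 for Trem2 (adjusted p = 0.489), and the longer Clec7a row stood at 0.71 (adjusted p = 0.218). In the same fit Ccl3 stood at 0.044, against 0.62 without the added mean, and Ccl4 at 0.24, against 0.64. With the mean of the 18 homeostatic microglia genes added instead, Tyrobp stood at 0.24 (adjusted p = 0.059), Trem2 at 0.22 (adjusted p = 0.162), Ccl3 at 0.47 and Ccl4 at 0.51. The median of the 11 rows was 0.16 with the microglia and macrophage mean, 0.34 with the homeostatic mean and 0.32 with neither. The summed level of those 15 genes ran from 11.03 to 11.36 in KO, from 10.94 to 11.19 in HET and from 11.01 to 11.22 in WT brains. In KO against HET 7 of the 15 were higher at an unadjusted p under 0.05 (limma), beside 4.25% of all genes, with a median of 0.14. Adding their mean may thus take out part of the genotype difference itself, and what lowered the estimates was not tested.

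The KO minus WT estimate was positive in 10 of 11 rows in each cohort, Lpl being the exception in both. In cohort 2, 0 of 11 rows were called in KO against WT (0.0506% of all genes) and 3 of 11 were higher at an unadjusted p under 0.05, beside 2.75% of all genes (limma). In cohort 1, 0 of 11 were called (2.49% of all genes) and again 3 of 11 were higher at an unadjusted p under 0.05, beside 7.92% of all genes. The members were not the same: Clec7a in both rows and Tyrobp in cohort 2, and Ccl3, Trem2 and Spp1 in cohort 1. Of the differences between cohorts, 0 of 11 were called (0.0338% of all genes were) and 0 had an unadjusted p under 0.05 (limma), and the lowest adjusted p among the members was 0.689.

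In cohort 2 the longer Clec7a row had the smallest p-value of the members. It had 2.32, 2.33, 2.53 and 3.45 in the 4 KO brains against 1.495, 1.60, 1.98 and 2.20 in the 4 WT brains. No KO brain of cohort 2 overlapped a WT brain of cohort 2. The share of all genes that separate so in groups of 4 was not counted, and the row was picked for its p-value. The separation is therefore a description only. In cohort 1 the levels were 2.18 to 2.79 with a median of 2.49 in 6 KO brains and 1.55 to 2.49 with a median of 2.03 in 6 WT brains. The KO minus WT difference was 0.81 ± 0.29 in cohort 2 and 0.44 ± 0.24 in cohort 1. Without KO replicate 9, the brain at 3.45, the cohort 2 difference was 0.59, with an unadjusted p of 0.0596 and an adjusted p of 0.86 (limma). The cohort 2 rows higher at an unadjusted p under 0.05 were then 2 of 11, the shorter Clec7a row (1.24) and Apoe (0.081).

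Spp1 showed the reverse order of cohorts. In cohort 2 it had 7.44, 7.84, 7.87 and 7.94 in KO brains and 7.49, 7.72, 7.91 and 7.94 in WT brains, and these groups overlapped throughout. In cohort 1 it ran from 7.49 to 8.10, with a median of 7.80, in KO brains and from 7.32 to 7.65, with a median of 7.49, in WT brains. The KO minus WT difference was 0.01 ± 0.15 in cohort 2 and 0.32 ± 0.12 in cohort 1, and the difference between them was -0.31 ± 0.19 (adjusted p = 0.689, limma).

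Ccl3 was higher in KO at 0.69 ± 0.52 in cohort 2 and 1.02 ± 0.42 in cohort 1. Its 4 KO brains of cohort 2 split into a low pair, at 0.59 and 0.69, and a higher pair, at 2.12 and 2.56, against -0.41, 0.54, 0.89 and 2.05 in the WT brains. In cohort 1 the 6 KO brains lay between 2.24 and 3.09, and 1 of the 6 WT brains, which ran from 0.76 to 2.59, reached into that range. Trem2 stood at 0.13 ± 0.11 and Tyrobp at 0.21 ± 0.10 in cohort 2, and at 0.21 ± 0.09 and 0.14 ± 0.08 in cohort 1.

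HET against WT had 0 of 11 rows called in cohort 2 (0.00844% of all genes) and 0 with an unadjusted p under 0.05 (3.05% of all genes). In cohort 1 0 of 11 were called (0.00422%) and 2 were lower at an unadjusted p under 0.05, beside 4.14% of all genes (limma). These 2 were Tyrobp, at 0.00 ± 0.10 in cohort 2 and -0.19 ± 0.08 in cohort 1, and the shorter Clec7a row, at 0.36 ± 0.55 in cohort 2 and -0.89 ± 0.43 in cohort 1. Tyrobp had 7.31, 7.35, 7.43 and 7.56 in the 4 HET brains of cohort 2 against 7.26, 7.31, 7.50 and 7.56 in the WT brains, and 6.996 to 7.35 with a median of 7.29 in the 6 HET brains of cohort 1 against 7.11 to 7.57 with a median of 7.49 in the WT brains. The HET and WT brains overlapped in both cohorts. For the difference between cohorts 0 of 11 rows were called (0 of all genes were) and 0 had an unadjusted p under 0.05 (4.52% of all genes), by limma.

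**Figure D3:**
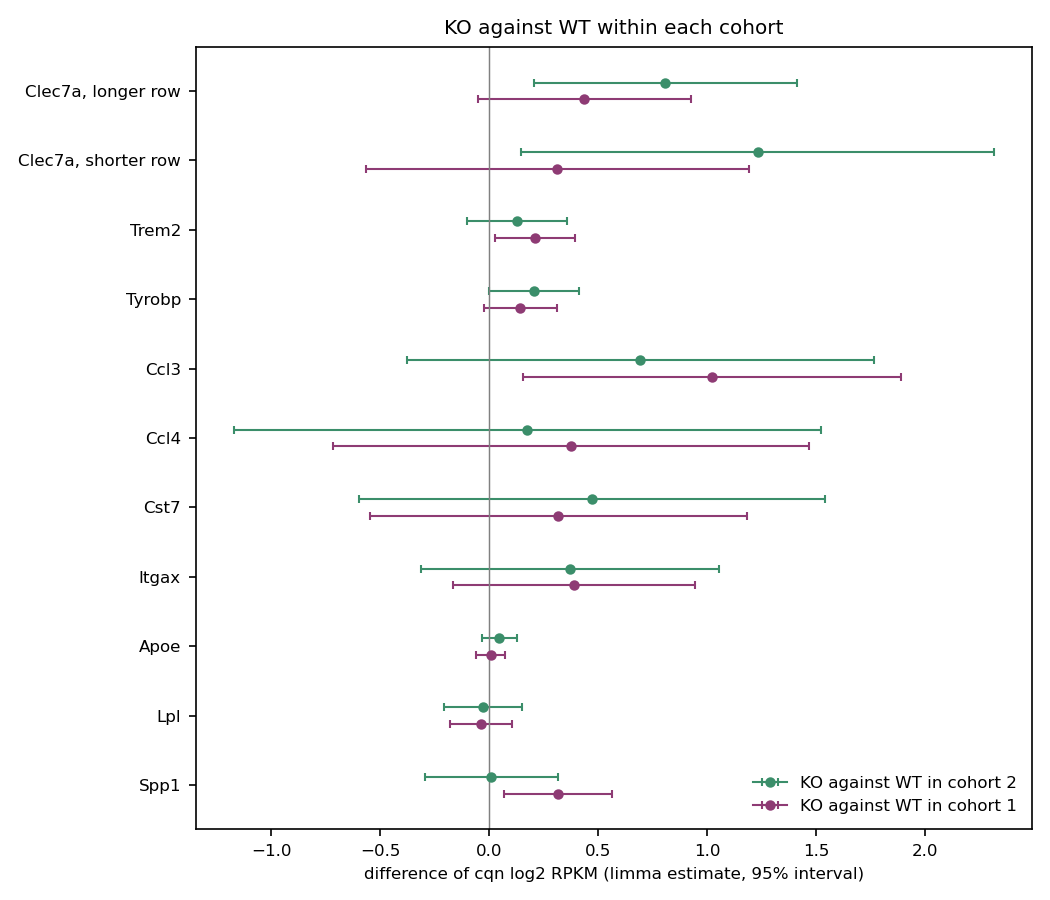
KO minus WT difference of cqn log2 RPKM (x axis, limma estimate with 95% interval) for each member row within cohort 2 and within cohort 1. Clec7a lies further right in cohort 2 and Spp1 in cohort 1, and the intervals of the cohorts overlap in every row.

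Between the cohorts themselves, over all genotypes, 1 of 11 rows was called. Cst7 fell by 0.77 log2 in cohort 2 relative to cohort 1 (SE 0.27, adjusted p = 0.049, limma), where 17.5% of all genes were called and 9.42% were lower. It averaged 1.56 ± 1.39 in KO, 0.87 ± 0.92 in HET and 0.94 ± 0.61 in WT brains of cohort 2 (SD, n = 4 each), and 1.97 ± 0.78, 1.59 ± 0.77 and 1.66 ± 0.73 in the same genotypes of cohort 1 (SD, n = 6 each). The call was lost in 20 of 30 fits that left out 1 brain, with adjusted p between 0.0117 and 0.179, and without RIN in the fit (-0.62, adjusted p = 0.137). Ccl3 was lower in cohort 2 at an unadjusted p of 0.0248 (-0.68 ± 0.29, adjusted p = 0.102).

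Sex was balanced within each genotype. In females 0 of 11 rows were called in KO against WT (0.110% of all genes) and 4 of 11 were higher at an unadjusted p under 0.05, beside 3.73% of all genes. In males 0 of 11 were called (0.363% of all genes) and 1 of 11 was higher, beside 6.21% (limma). The 4 in females were Clec7a (longer row, 0.81 ± 0.26), Tyrobp (0.23 ± 0.09), Ccl3 (1.04 ± 0.49) and Trem2 (0.21 ± 0.10), which in males stood at 0.35 ± 0.27, 0.10 ± 0.09, 0.73 ± 0.50 and 0.14 ± 0.10. The 1 in males was Spp1, at 0.32 ± 0.14, with 0.07 ± 0.13 in females. Without KO replicate 9, 2 of 11 rows were higher in KO females at an unadjusted p under 0.05, the longer Clec7a row at 0.63 and Tyrobp at 0.22. Ccl4 had opposite signs, 0.81 ± 0.55 in females and -0.26 ± 0.56 in males. No female minus male difference of a member had an unadjusted p under 0.05, where 7.10% of all genes did, and 0 of all genes were called (limma).

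The deposited levels of the members did not vary as a block over the 30 brains. Most pairs include a row of the scarce set, where noise and tied values can lower r. Across the 55 pairs of rows the median Pearson r was 0.15, and -0.00 after genotype, sex, cohort and RIN were taken out, with 40 pairs positive. The points of a pair share their library and its depth, so these values are descriptions over n = 30 brains. Only 2 pairs exceeded 0.5. Trem2 and Tyrobp reached 0.70 (0.50 after the terms were taken out, 0.61 without the 2 farthest brains), and the overlapping Clec7a rows reached 0.58. Within genotypes the Trem2 and Tyrobp r was 0.78 in KO, 0.41 in HET and 0.32 in WT brains. Next came Clec7a and Itgax at 0.47, while the neighbouring Ccl3 and Ccl4 reached 0.34.

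**Figure D4:**
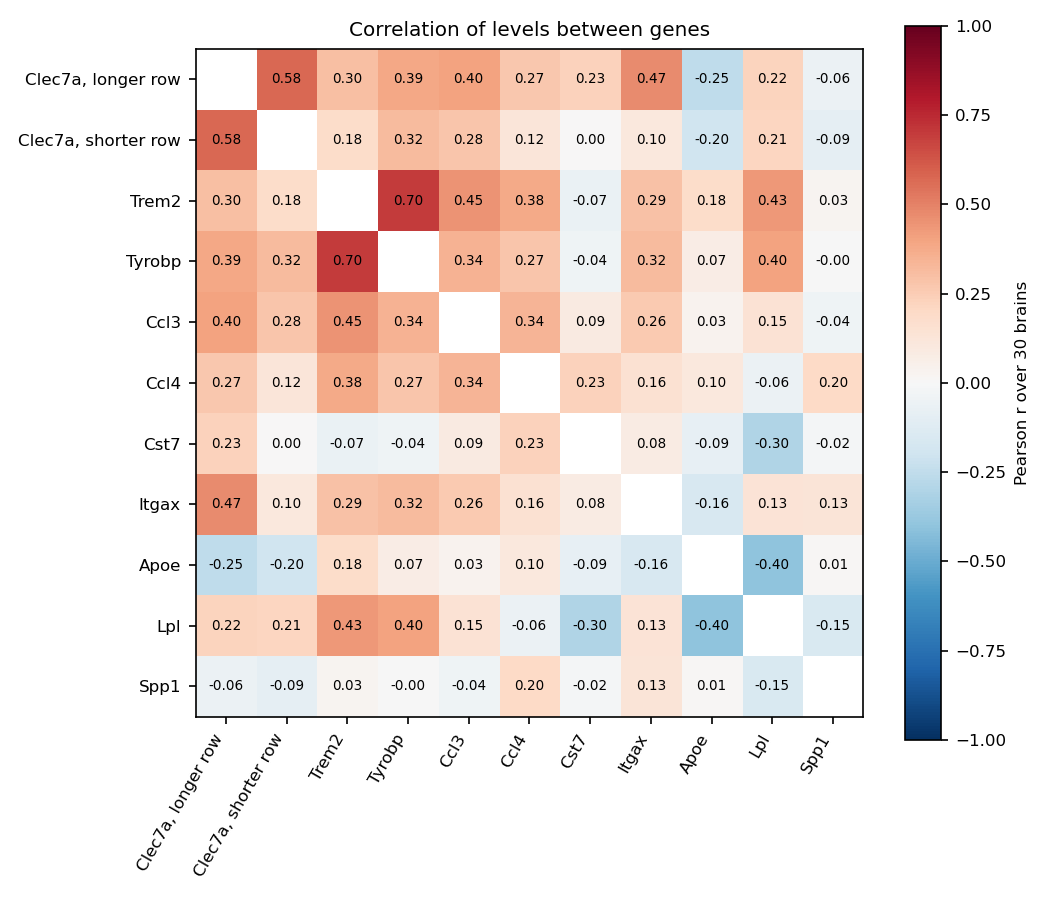
Pearson r over 30 brains for each pair of member rows, coloured from -1 to 1. Trem2 with Tyrobp (0.70) and the 2 Clec7a rows (0.58) are the only pairs above 0.5.

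The genes most like each member over the 30 brains were sought among all genes tested, by Pearson r. C1qb, a chain of complement C1q, had r = 0.75 with Tyrobp, and Ly86, a microglial cofactor of toll-like signalling, had r = 0.75. For the longer Clec7a row the nearest were Lyz2, a myeloid lysozyme (0.65), and Gfap, the astrocyte filament (0.64), and r with Gfap was 0.24 after genotype and the other terms were taken out. For Trem2 they were Adss and Nt5c3, both at 0.72, enzymes of nucleotide metabolism. For Cst7 they were Fn1, fibronectin, and Mrc2, a collagen receptor, both at 0.64. Apoe was nearest to Wdr3 (0.69) and Ccdc22 (0.68), and Lpl to Coa4 (0.71) and Chsy1 (0.70). For the scarce genes the nearest were 4930430F08Rik (0.68) and BC003331 (0.66) for Ccl3, 9130401M01Rik (0.69) and Mtag2 (0.67) for Ccl4, Gm17751 and Ttc16 (both 0.58) for Itgax, and Ptplad2 and Igdcc4 (both 0.64) for the shorter Clec7a row. Each is the best of all genes tested, picked over 30 brains, so these names are a description only.

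Spp1 stood out with the highest likeness of any member. Slc6a5, the glycine transporter of glycinergic neurons, had r = 0.80 with Spp1 (Spearman 0.82, and 0.84 after the terms were taken out). By genotype the r was 0.94 in KO, 0.74 in HET and 0.79 in WT brains, and by cohort it was 0.76 in cohort 2 and 0.85 in cohort 1. Slc6a5 was picked by its r over these same brains, so these values describe the pair and are no separate support. Hoxb3os, a transcript of the Hoxb3 locus, followed at 0.76, with a low mean level of 0.83. Glycinergic neurons and Hox expression are known mainly from hindbrain and spinal cord, and Spp1 is known to be made by some neurons as well as by activated microglia. Which cells or regions gave the Spp1 RNA here was not tested. Slc6a5 ran from 4.21 to 5.56 in KO, from 4.36 to 5.65 in HET and from 3.68 to 5.56 in WT brains, and its own KO minus WT difference was 0.17 ± 0.22 (adjusted p = 0.838, limma). With the Slc6a5 level added to the fit, the Spp1 KO minus WT difference was 0.14 (adjusted p = 0.285). Spp1 had an r of 0.17 with the summed level of the 15 microglia and macrophage genes, where Tyrobp had 0.82 and Trem2 0.77.

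**Figure D5:**
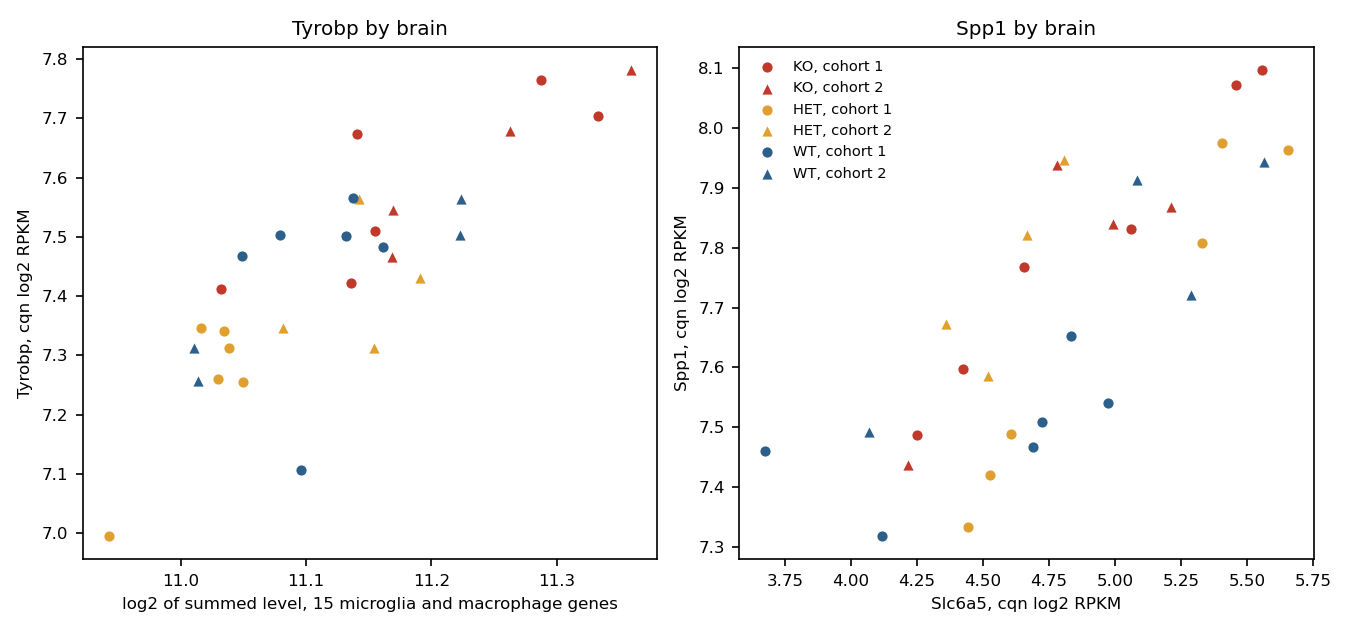
Left, Tyrobp against the log2 summed level of 15 microglia and macrophage genes; right, Spp1 against Slc6a5, all on the cqn log2 RPKM scale, 1 point per brain, coloured by genotype, circles for cohort 1 and triangles for cohort 2. The points rise together in both panels (r = 0.82 and 0.80), and the highest Tyrobp levels belong to KO brains.

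Other genes raised in disease-associated microglia were tested next. Of 30 tested, 1 rose in KO against WT, Ctsd, a lysosomal aspartic protease (0.10 ± 0.02, adjusted p = 0.00771), and 0 fell. At an unadjusted p under 0.05, 7 were higher and 1 was lower, and the median was 0.02. For this list and those that follow, 1.00% of all genes were called in KO against WT. At an unadjusted p under 0.05, 6.11% of all genes were higher and 5.90% lower. The largest differences of the list were Lilrb4, an inhibitory myeloid receptor (0.71 ± 0.34, adjusted p = 0.410), and Ch25h, an enzyme that makes an oxysterol (0.45 ± 0.27, adjusted p = 0.547). In KO against HET, Ctsd again rose (0.10 ± 0.02, adjusted p = 0.0228), and 25 of 30 estimates were positive, against 51.8% of all genes.

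Genes of resting microglia were mostly not called. Of 18 homeostatic genes 1 rose, Mertk, a receptor for apoptotic cells (0.24 ± 0.06, adjusted p = 0.029), and 0 fell. The median was -0.03, and 1 gene was higher and 4 were lower at an unadjusted p under 0.05. Leaving out 1 KO or WT brain put the adjusted p of Mertk between 0.00411 and 0.0641 and ended its call in 9 of 20 fits. Of the 15 genes of microglia and macrophages at large, 1 rose, C1qb (0.18 ± 0.04, adjusted p = 0.0158, and 0.0619 with only KO and WT brains in the fit), and 0 fell, with a median of 0.05. In KO against HET 7 of those 15 were higher at an unadjusted p under 0.05, beside 4.25% of all genes, with 0 called and a median of 0.14.

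Partners of the members showed no called gene in KO against WT. Among 18 signalling partners and regulators of Trem2 and Clec7a, 0 were called and 1 was higher and 1 lower at an unadjusted p under 0.05. The largest estimate belonged to Ms4a6d, a membrane protein of myeloid cells (0.37 ± 0.15, adjusted p = 0.312). Among 15 chemokines, their receptors and related cytokines, 0 were called and 1 was lower at an unadjusted p under 0.05, with Ccr2, the monocyte chemokine receptor, at -0.58 ± 0.34 (adjusted p = 0.535) and Ccl12 at 0.43 ± 0.30 (adjusted p = 0.626). Cxcl2 and Tnf had a mean at or below 0 and were not tested. Among 16 lipoprotein genes 0 were called and 1 was higher and 2 lower at an unadjusted p under 0.05, with Apoc1, a neighbour of Apoe, at 0.33 ± 0.12 (adjusted p = 0.216) and Abca1, the cholesterol exporter that loads Apoe, at -0.13 ± 0.04 (adjusted p = 0.206). Among 9 osteopontin receptors and integrin partners 0 were called and 1 was lower at an unadjusted p under 0.05.

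Markers of other cells were measured beside these genes. Of 9 genes of perivascular and meningeal macrophages, which also express several members, 0 were called and 3 were higher at an unadjusted p under 0.05 (median 0.12; Pf4 at 0.51 and Cbr2 at 0.54). Their summed level had a median of 6.39 and reached 6.62 in KO brains, a median of 6.26 and up to 6.54 in HET brains, and a median of 6.25 and up to 6.39 in WT brains. Of 12 blood leukocyte genes, Plac8, Nkg7, Cd3e and Ms4a1 had a mean at or below 0, and 0 of the other 8 were called, with sums of 5.27 to 7.10 in KO, 5.12 to 6.28 in HET and 4.97 to 6.33 in WT brains. Of 10 astrocyte genes 1 rose, Gfap (0.22 ± 0.05, adjusted p = 0.00967), and 0 fell. The median was -0.00, 4 of 10 estimates were positive, and 2 genes were lower at an unadjusted p under 0.05, among them Sox9 (-0.17 ± 0.05, adjusted p = 0.0883). Of 10 oligodendrocyte genes 9 fell, with a median of -0.24.

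Of 10 endothelial and mural genes 1 fell, Tek, a receptor of blood vessels (-0.21 ± 0.05, adjusted p = 0.0461), a call that ended in 14 of 20 fits that left out 1 brain. In that list 0 of 10 estimates were positive, 6 were lower at an unadjusted p under 0.05, and the median was -0.13. Their summed level ran from 10.53 to 11.06 in KO, from 10.70 to 10.96 in HET and from 10.86 to 11.01 in WT brains. Of 7 meningeal fibroblast genes 0 were called, 0 estimates were positive, 2 were lower at an unadjusted p under 0.05, and the median was -0.16, with Col3a1 at -0.51 ± 0.15 (adjusted p = 0.121). By cohort that median was 0.18 in cohort 2 and -0.31 in cohort 1, and the endothelial and mural median was -0.0049 in cohort 2 and -0.20 in cohort 1. The difference between cohorts was positive at an unadjusted p under 0.05 in 5 of 7 meningeal and in 5 of 10 endothelial and mural genes (limma). Of all 23695 genes, 983 did so. None of the 10 neuronal, 8 choroid plexus and 5 red blood cell genes was called in KO against WT. At an unadjusted p under 0.05, 1 neuronal gene was higher and 1 lower, and 1 choroid plexus gene was lower (limma). Of 12 immediate early genes 0 were called, 4 were lower at an unadjusted p under 0.05, and the median was -0.40. The part of any of these in the members' differences was not tested. With the microglia and macrophage mean added, the longer Clec7a row stood at 0.57 (adjusted p = 0.183, limma) in KO against WT, against 0.58 without it. Ccl3 stood at 0.61 (adjusted p = 0.361), against 0.89, and Ccl4 at 0.10, against 0.29. Tyrobp stood at 0.11 and Trem2 at 0.12, against 0.17 and 0.18. Cst7 stood at 0.44 and Spp1 at 0.21, against 0.38 and 0.20. The median of the 11 rows was 0.21, against 0.29. That mean may itself carry a genotype difference, since C1qb is among its genes, and what moved these estimates was not tested.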

How the data were processed

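The authors deposited 1 table of log2 RPKM values (reads per exon length and per library) after conditional quantile normalization, with 34871 rows and 30 libraries, per the file headers. TopHat2 2.0.12, Bowtie 1.1.0 and the build mm10 are named in the submitters' processing notes. The counting tool, annotation and strand setting were not stated in what was used here. The table carries no counts, so depth is unknown and precision was judged from the spread between mice. Library medians lay between 2.82 and 2.91.

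Genes with a mean above 0 were kept (23695). A model with genotype, sex, cohort and RIN was fitted to all 30 libraries in limma 3.58.1 (R 4.3.3), tested two-sided with eBayes and an intensity trend, and adjusted by Benjamini-Hochberg over the genes kept. A gene is called, and said to rise or fall, at an adjusted p under 0.05; SE and 95% intervals come from the fit. Cohort and sex contrasts used cell means. The fit was tested on simulated data. Level sums over a list are sums on the linear scale, given as log2.

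The members and all 18 gene lists were chosen with earlier results of these data known. The rule for named genes was the members, Tmem106b, the called genes and the 2 largest KO minus WT differences of each list, and the 2 genes most like each member; of the other cell types' lists, counts are printed, with only some of the named genes. Alternatives were covariates, filter, scaling, variance model, and genotypes or libraries in the fit. Added after seeing the data were joining the Clec7a rows, the microglia and macrophage mean, the Slc6a5 level, the cohort contrast under these settings, and the cohort 2 and female contrasts without KO replicate 9.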

Additional observations from a re-analysis of the deposited data

Results flagged for a closer look

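In groups of 10 brains, a brain was noted when its gap to the nearest other exceeded 0.466 of the group's range (Dixon's test). Over 90 groups checked 11 were noted, and chance gives about 1 in 20 groups. Of these, 4 came from KO replicate 9. It had the highest longer-row Clec7a of the KO brains, 3.45 with 2.79 next, and the lowest Apoe, 12.40 with 12.50 next. Its summed level of the member rows was also the lowest, 12.52 with 12.63 next. That sum is linear and made up mostly of Apoe, so it repeats the low Apoe and does not describe the other members. Its red blood cell sum was the highest, 14.55. Without it the KO minus WT difference of Clec7a was 0.50, and that of Apoe was 0.03.

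HET replicate 10 had the lowest longer-row Clec7a of the HET brains, 0.54 with 1.66 next, and HET replicate 3 had the lowest shorter-row Clec7a, -1.29 with 0.32 next. KO replicate 2 had the lowest Itgax of the KO brains, -0.80 with 0.12 next. Among list sums, WT replicate 6 had the highest lipoprotein level of the WT brains at 12.36, and WT replicate 7 had the lowest red blood cell level at 10.81. The choroid plexus sum was lowest at 12.10 in KO replicate 5 and at 12.28 in WT replicate 10. What these libraries have in common was not tested.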

How the results depend on the processing

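No paired analysis was possible because the replicate numbers follow the order of the samples and the labels pair no mice. In KO against WT, no member row was called under any alternative run, and the count of all genes called was 144 with genotype alone, 114 with only the 2 genotypes compared, and 138 (without WT replicate 4) to 388 (without KO replicate 10) when 1 brain was left out. In HET against WT it was 4 with genotype alone, 3 without RIN and 1 to 2 with 1 brain left out. In KO against HET it was 43 with array weights and 24 to 44 with 1 brain left out, and the member rows called were 2 with the plate column added and 0 to 1 with 1 brain left out. In cohort 2 against cohort 1, the member rows called were 0 without RIN, without the filter and without the trend, and 0 to 1 with 1 brain left out.

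Signs turned in the fits that follow, and the cause was not tested. In KO against WT, cohort 2 alone gave Spp1 -0.0029, Ccr2 0.21, S100a8 -0.29, Col3a1 0.13, Kl 0.16, Slc6a13 0.26, Folr1 0.20, Cldn5 0.087 and Syp -0.0051, and cohort 1 alone gave Hbb-bt -0.20 and Hbb-bs -0.15. Females alone gave Lpl 0.0057 and Ccr2 0.30, and males alone gave Ccl4 -0.25. In HET against WT, cohort 2 alone gave Spp1 -0.026, Clec7a 0.025 (longer row) and 0.39 (shorter row), Tyrobp 0.0061 and Itgax -0.19, cohort 1 alone gave Apoe -0.0022 and Ccl3 -0.029, females alone gave Ccl4 0.41 and males alone gave Apoe -0.044. With the microglia and macrophage mean added, KO against HET gave Lpl -0.045 and KO against WT gave Hbb-bs -0.0027. In cohort 2 against cohort 1, Itgax was 0.0012 without RIN and Ccl4 -0.17 with the plate column. With 1 brain left out, Hbb-bs ran from -0.052 to 0.26 in KO against WT and Apoe from -0.0012 to 0.024 in KO against HET. In cohort 2 against cohort 1, Ccl4 ran from -0.12 to 0.13, Itgax from -0.10 to 0.024 and the longer Clec7a row from -0.021 to 0.11.

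Depth is unknown. The low members (Itgax, Ccl4, Cst7, Ccl3 and the shorter Clec7a row) sit partly on tied values, and their wide intervals do not exclude moderate changes.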
